A study of Macaca mulatta with 6 samples.

Results

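CCGG sites on the autosomes of the rhesus macaque, Macaca mulatta, were described here where they had a row in the table of haploid embryonic stem cells (ESC) and none in the table of sperm. A site was taken when its chromosome was 1 to 20 and no row of the sperm table had the same chromosome and position. There were 102148 such sites among 1317975 autosomal haploid ESC sites, or 7.75% (95% Wilson interval 7.70% to 7.80%), and the other 1215827 had a row in both tables. The sperm table had no row within 2 bp of any of the 102148 sites and had a row within 10 bp of 748 of them. Both tables are named for modified sites, and the members were chosen by the presence of a row, itself a readout, so the values below are descriptions and none was tested. A site with no sperm row is called missing in sperm, which says only that the sperm table used here has no row for it, and a site with a row in both tables is called shared.

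The haploid ESC are named parthenogenetic in the series title, which means that they derive from an egg and hold no paternal genome. Each cell type, haploid ESC and sperm, was profiled as 3 digests (HpaII, BGT_MspI and MspI) with 1 library per digest. The 6 libraries hold no replicates, so replicate error cannot be given for any value, and no label says which animals or cultures gave the DNA. Intervals cover counting error over sites alone, and neighbouring sites share their source, so these intervals are too narrow.

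HMST-Seq counts sequence tags beside CCGG sites that a restriction enzyme has cut. HpaII cuts a CCGG site only when its inner CG is unmodified, and MspI cuts it whether or not that C is methylated. A glucosyltransferase adds glucose to 5-hydroxymethylcytosine and so shields such a site from MspI. In mammals most CG pairs outside dense clusters are methylated, and dense clusters, the CpG islands, tend to be free of methylation. Sperm DNA is widely methylated, and imprinted regions keep methylation from 1 parent's gamete. No imprinted region is named here.

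Each table gives 4 values per site in 2 pairs, and the second value of the first pair was equal to the first value of the second pair in every row. A site therefore has 3 distinct values, called here the first, the second and the third signal. No name ties a signal to a digest, so a signal is read neither as cut nor as modified DNA. The values are the authors' normalized signal, and nothing used here explains their scale. No row of either table held a 0 in any signal, and whether a row required a tag in each digest could not be settled, so a missing row is read neither as unmodified nor as unsequenced. The lowest haploid ESC values were 1.002, 0.764 and 0.818 for the first, the second and the third signal, and the lowest sperm values were 2.54, 0.592 and 0.618. Depth per library is unknown.

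Sites listed in haploid ESC alone had low signal in all 3 columns. The median first signal was 6.54 at sites listed in haploid ESC alone, against 19.6 at sites in both tables, a ratio of 0.333. The median second signal was 8.91 at members and 18.8 at shared sites, a ratio of 0.475. The median of the third signal was 9.002 at members and 19.0 at shared sites, a ratio of 0.474. The first signal thus had the lowest ratio of the 3. The quartiles of the first signal were 3.18 and 11.6 at members and 9.96 and 35.2 at shared sites. The distributions overlapped, but 89.7% of members had a first signal below the median of shared sites, and 80.8% were below it in the second and 80.8% in the third signal.

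**Figure D1:**
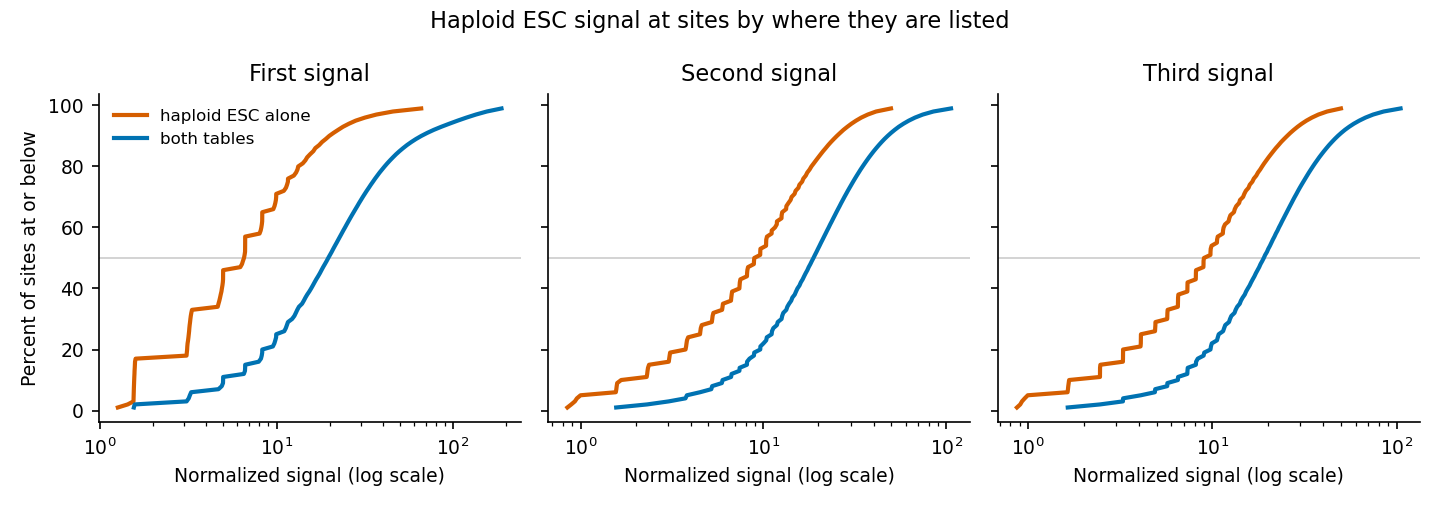
Percent of sites (y axis) at or below a given normalized haploid ESC signal (x axis, log scale) for the first, the second and the third signal, at sites listed in haploid ESC alone (orange) and in both tables (blue), drawn from percentile 1 to 99. The orange curves lie to the left in each panel, with medians of 6.54, 8.91 and 9.002, against 19.6, 18.8 and 19.0 for the blue curves, and low values come in steps.

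Low values came in steps, so the most frequent combinations of 3 values can be counted. The most frequent one, with signals (the first, the second and the third) of 1.002, 0.9998 and 0.9965, occurred at 1401 autosomal haploid ESC sites, of which 784, or 56.0% (53.3% to 58.5%), were missing in sperm. The next, with signals of 3.12, 0.955 and 0.959, occurred at 1009 sites, and 526 of them (52.1%) were missing in sperm. Many sites with such low values thus still had a sperm row.

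The share of sites missing in sperm fell steadily with the haploid ESC signal. When sites were cut into 10 classes of nearly equal size by the first signal, the share was 29.6% in class 1, 5.16% in class 5 and 0.864% in class 10. By the second signal it was 23.8%, 6.70% and 0.989% in the same classes, and by the third signal 23.8%, 6.402% and 1.02%. The share therefore spanned a wider range over the first signal than over either of the others. The share differed along both kinds of signal. Among sites in the lowest of 5 classes of the first signal, the share was 32.02% in the lowest class of the second plus the third signal and 8.56% in the highest. Among sites in the highest class of the first signal it was 3.42% in the lowest class of the second plus the third signal and 0.451% in the highest. Of 365546 sites with all 3 signals below the median of all autosomal sites, 18.6% were missing in sperm, against 0.875% of 365204 sites with all 3 at or above it. The set with high signals still held 3196 members.

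**Figure D2:**
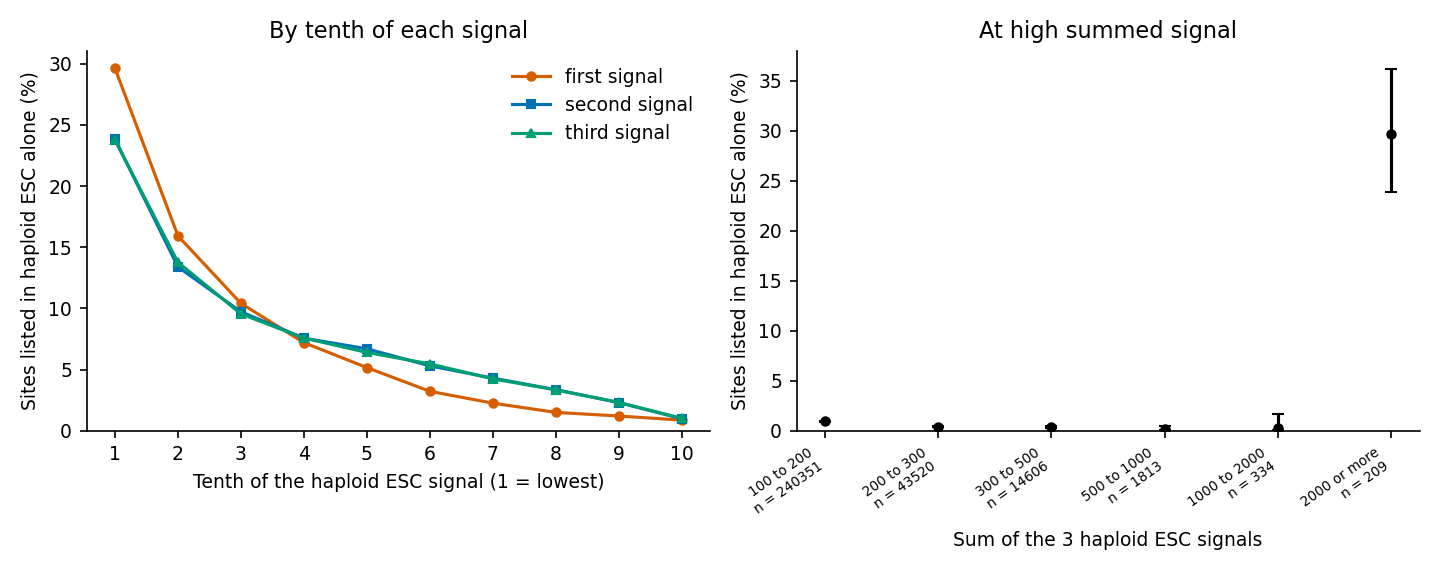
Percent of autosomal haploid ESC sites listed in haploid ESC alone (y axes), on the left by 10 classes of each haploid ESC signal from lowest to highest, and on the right by the sum of the 3 signals from 100 up, with 95% Wilson intervals and the number of sites. The share declines from class 1 to class 10 for each signal, and on the right it is 0.955% or less for sums of 100 to 2000 and 29.7% from 2000 on.

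The decline did not hold at the very top. Among sites whose 3 signals summed to between 500 and 1000, 3 of 1813 were missing in sperm (0.165%), and between 1000 and 2000, 1 of 334 (0.299%). At a sum of 2000 or more, 62 of 209 were missing, or 29.7% (23.9% to 36.2%). These 62 lay on 16 chromosomes, and their lowest sum was 2560. Their median signals (the first, the second and the third) were 608, 2336 and 2476, against 502, 1162 and 1183 at the shared sites of that range. At those shared sites the sperm signals summed to a median of 4212, so they were high in sperm too. The limits of 500, 1000 and 2000 were set after the values were seen.

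The highest single values were close to each other in the 2 tables. On the autosomes the largest signals (the first, the second and the third) were 4283, 4274 and 4263 in haploid ESC and 4176, 3756 and 4283 in sperm. Whether the authors set an upper limit on the signal could not be settled, so a missing row at the highest signals is not read as low signal in sperm.

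A stretch at the start of chromosome 9 held the largest group of these members. Within its first Mb, 26 of 40 sites with a sum of 2000 or more were missing in sperm, and without that Mb the share was 36 of 169, or 21.3% (15.8% to 28.1%). In a span of 150 kb whose first listed site is at 552477 and whose last is at 699114, 28 of 174 haploid ESC sites were missing in sperm (16.1%), of which 25 had a sum of 1000 or more. In that span the sums ran from 9.62 to 8696 with a median of 5055 at the 28 members, and from 8.63 to 6833 with a median of 147 at the shared sites. In the 150 kb on either side, 16 of 247 sites were missing in sperm (6.48%), with a median sum of 24.6 at these members and 65.8 at the shared sites. The members of the span thus stood above its shared sites in signal, and the members beside it stood below theirs. At the shared sites the median sperm sum was 239 in the span and 100.02 beside it. The span was chosen after its values were seen.

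The 5 members with the largest sums were named by rule. The first lay on chromosome 9 at 680452, with signals (the first, the second and the third) of 159, 4274 and 4263. On the same chromosome, position 595140 had 865, 3670 and 3753, position 680260 had 610, 3856 and 3528, and position 577333 had 1658, 2705 and 3276. The remaining one lay on chromosome 16 at 4835497, with 1145, 3470 and 3400. In each of these 5 the first signal was the lowest of the 3. That order held at 56 of the 62 members with a sum of 2000 or more (90.3%) and at 133 of the 147 shared sites of that range (90.5%), so members and shared sites were alike in it. Positions are those of the tables, whose macaque genome build nothing used here names, so no gene, exon or sequence is assigned to them.

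The balance of the signals also differed between the sets. The first signal was above the second at 40.8% of sites listed in haploid ESC alone and at 52.0% of sites in both tables. The median log2 ratio of the first to the second signal was -0.42 at members and 0.06 at shared sites, with quartiles of -1.59 and 0.84 at members and of -0.90 and 1.11 at shared sites. The second and the third signals stayed close to each other in both sets: their median log2 ratio, the third over the second, was 0.02 at members and 0.01 at shared sites. They were within 2-fold of each other at 83.2% of members and 91.2% of shared sites.

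Calls were a smaller share of members than of shared sites. A call is a site whose value is below 0.05 in the unnamed deposited column read here as the adjusted p of the pair. On that reading a first-pair call says that the 2 signals of the pair differ in these libraries. The second-pair column holds values too large for a p-value in places. It is read as a score, and a second-pair call says only that the score was below the threshold. For the first pair (first against second signal) the authors' deposited table called 57.1% of members, against 67.6% of shared sites and 66.8% of all autosomal haploid ESC sites. For the second pair (the second against the third signal) the authors' deposited table called 6.34% of members, against 11.5% of shared sites and 11.1% of all sites. The deficit turned round when shared sites were weighted by summed signal, though not among the weakest sites. With shared sites weighted to the 10 classes of the summed signal as the members fill them, the authors' deposited table called 52.4% of them for the first pair, below the 57.1% of the members, and 5.80% for the second pair, below 6.34%. For the first pair members were called more often than shared sites in classes 2 to 10. In class 1, which held 39246 members, the authors' deposited table called 36.9% of members and 39.8% of shared sites.

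Direction separated the first-pair calls. First-pair calls with the first signal higher made up 19.998% of members in the authors' deposited table, against 35.9% of shared sites and a background of 34.7% of all sites. Calls with the first signal lower made up 37.1% of members in the authors' deposited table, against 31.8% of shared sites and a background of 32.2%. With weights on the summed signal the shared sites of the authors' deposited table had 29.1% and 23.3%. Members thus had fewer calls of the first kind and more of the second at a like sum. Only the sum was matched, not each signal. In class 5 the median first signal was 9.75 at members and 18.2 at shared sites, and the second 20.8 and 17.6. In class 10 the median first signal was 98.9 at members and 90.1 at shared sites. The part of this in the calls was not tested. For the second pair, calls with the third signal higher made up 3.96% of members in the authors' deposited table, against 6.56% of shared sites and 6.36% of all sites. Calls with the third signal lower made up 2.38% of members in that deposited table, against 4.98% of shared sites and 4.78% of all sites.

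Sites listed in sperm alone were also weak, but their first signal spread more widely. There were 39077 of them, or 3.11% of 1254904 autosomal sperm sites. Their median sperm signals were 6.20, 8.29 and 8.80 for the first, the second and the third signal, against 16.4, 16.7 and 16.7 at shared sites, which gives ratios of 0.378, 0.497 and 0.527. Their first signal had a long upper tail, however, with 5% of sites above 117, whereas 5% of sites listed in haploid ESC alone had a first haploid ESC signal above 28.1.

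Signal at neighbouring sites was not used to choose the members, so it describes their surroundings. For each haploid ESC site the nearest other site with a row in both tables was taken. The median first haploid ESC signal at neighbours at most 50 bp away was 14.2 beside the 4777 members, against 21.1 beside the 53342 shared sites, a ratio of 0.675. That ratio was 0.810 at 200 to 500 bp and 0.997 at 1000 to 5000 bp. The second and the third haploid ESC signals had ratios of 0.946 and 0.944 within 50 bp.

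The first sperm signal at the same neighbours lay lower still. Within 50 bp its median was 9.24 beside members, against 17.0 beside shared sites, a ratio of 0.544. The ratio was 0.613 at 50 to 100 bp, 0.643 at 100 to 200 bp, 0.680 at 200 to 500 bp, 0.923 at 500 to 1000 bp and 0.986 at 1000 to 5000 bp. Neighbours of missing sites were therefore low in the first sperm signal up to about 500 bp. The second and the third sperm signals at neighbours within 50 bp differed less, with ratios of 0.929 and 0.930.

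Turned round, the first signal of the neighbour sorted sites by whether they were missing in sperm. Of 296059 haploid ESC sites with a shared neighbour within 200 bp, 7.30% were missing in sperm. With these sites put into 10 classes by the first haploid ESC signal of that neighbour, the share was 11.02% in class 1, 8.07% in class 5 and 1.84% in class 10. By its first sperm signal the share was 11.6% in class 1 (11.2% to 11.96%), 8.72% in class 5, 4.42% in class 8, 1.49% in class 9 and 1.33% in class 10 (1.21% to 1.47%). Class 9 began at a neighbour signal of 77.3. By the second sperm signal the share was 8.70% in class 1 and 4.95% in class 10, and by the third 8.88% and 4.89%.

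**Figure D3:**
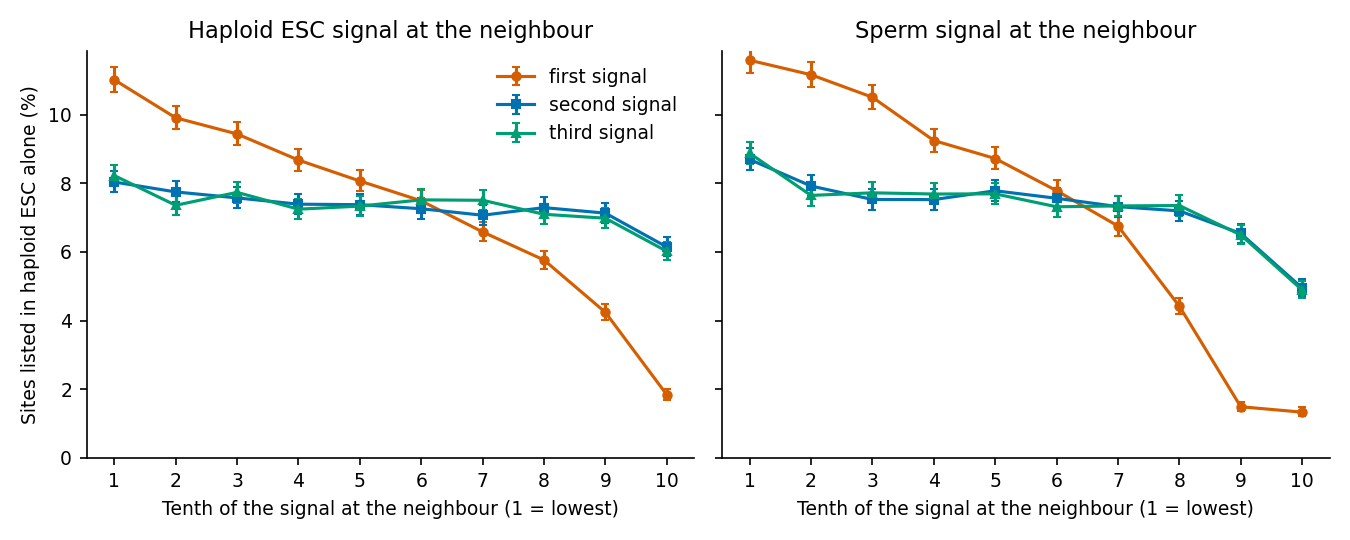
Percent of haploid ESC sites listed in haploid ESC alone (y axis) by class of the signal at the nearest shared site within 200 bp (x axis, 10 classes), for haploid ESC signals on the left and sperm signals on the right, with 95% Wilson intervals. The first signal separates the classes most, from 11.02% in class 1 to 1.84% in class 10 over haploid ESC signals and from 11.6% to 1.33% over sperm signals.

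Local density set the members apart only slightly. Density was the number of other haploid ESC sites within 1000 bp, and it averaged 1.48 ± 1.53 around members and 1.65 ± 1.63 around shared sites (SD over sites). The share missing in sperm was 8.35% at sites with no other site within 1000 bp, 8.23% with 1, 6.91% with 3 and 5.83% with 6, and 6.87% with 9 or more. Within 200 bp the mean numbers were 0.279 around members and 0.278 around shared sites. The nearest haploid ESC site lay a median of 505 bp from members, against 467 bp from shared sites.

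The relation to the nearest distance was not monotonic. The share missing in sperm was 9.48% (9.17% to 9.80%) where another haploid ESC site lay within 30 bp and 8.64% at 30 to 50 bp. It was lowest, 7.16% (7.08% to 7.24%), at 200 to 500 bp, was 8.43% at 1000 to 2000 bp and 7.54% beyond 10000 bp. Very close sites and rather isolated sites were thus missing more often than those between.

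Within classes of the summed signal sites at most 50 bp apart were above those at 50 to 500 bp in each class, and sites over 1000 bp apart were above them in classes 1 to 8. In class 5 of 10 the share missing in sperm was 7.003% at most 50 bp from another site, 4.90% at 50 to 500 bp, 3.72% at 500 to 1000 bp and 6.20% beyond 1000 bp. In class 1 these shares were 30.2%, 28.6%, 29.5% and 32.02%, and in class 10 they were 0.960%, 0.546%, 0.485% and 0.385%. Among the 365204 sites with all 3 signals at or above their medians, the share was 1.61% within 30 bp, 0.791% at 200 to 500 bp and 0.713% at 1000 to 2000 bp. The 3196 members of that set had a nearest site at a median of 310 bp, against 471 bp for its 362008 shared sites. In the lowest of the 10 classes of summed signal the order was the other one, with a median of 520 bp for members against 487 bp for shared sites.

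Some exact spacings held far more sites than those beside them. A spacing was taken where the number of sites with that nearest distance was at least 1.5 times the median within 20 bp, a rule set after the values were seen. The share missing in sperm was 9.26% (8.97% to 9.56%) at 37490 sites whose nearest site was 200 to 207 bp away, against 7.22% at the distances beside them. At 133 to 137 bp it was 9.20% (8.79% to 9.63%), against 6.87% beside. At 233 to 238 bp it was 5.90% (5.60% to 6.21%), against 6.80% beside, and at 99 bp 5.64% (5.01% to 6.36%), against 7.195% beside. Some recurring spacings thus lay above their surroundings and some below. Signal differed between these sets too: the classes of summed signal alone would give 9.05% at 200 to 207 bp, close to the share found, and 8.18% at 233 to 238 bp, above it.

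A site close to a missing site was missing more often than a site equally close to a shared one. Where the next haploid ESC site was at most 50 bp away, it was missing in sperm in 17.9% of cases after a missing site (518 of 2891, 16.6% to 19.4%) and in 8.32% after a shared site (8.01% to 8.64%). At 50 to 100 bp these shares were 13.4% after a missing site and 7.16% after a shared site. At 200 to 500 bp they were 10.5% after a missing site and 6.75% after a shared site, and at 500 to 1000 bp 9.09% after a missing site and 7.19% after a shared site. At 1000 to 5000 bp 8.73% were missing after a missing site and 8.22% after a shared site. The gap between the 2 shares was small beyond 1000 bp. If each next site had the share of its own class of summed signal, 9.81% would be missing after a missing site within 50 bp and 7.49% after a shared site. Against the share from its own signal, the site after a missing one was missing less often at 500 to 1000 bp, with 9.09% found and 9.45% from signal. It was missing more often at 1000 to 5000 bp, with 8.73% found and 7.98% from signal, and at 5000 to 20000 bp, with 8.29% found and 6.85% from signal. The site after a shared one departed in the same directions, so these departures were not particular to missing sites. After a shared site 7.19% were found and 8.63% came from signal at 500 to 1000 bp. At 1000 to 5000 bp these were 8.22% and 7.76%, and at 5000 to 20000 bp 7.83% and 6.79%.

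**Figure D4:**
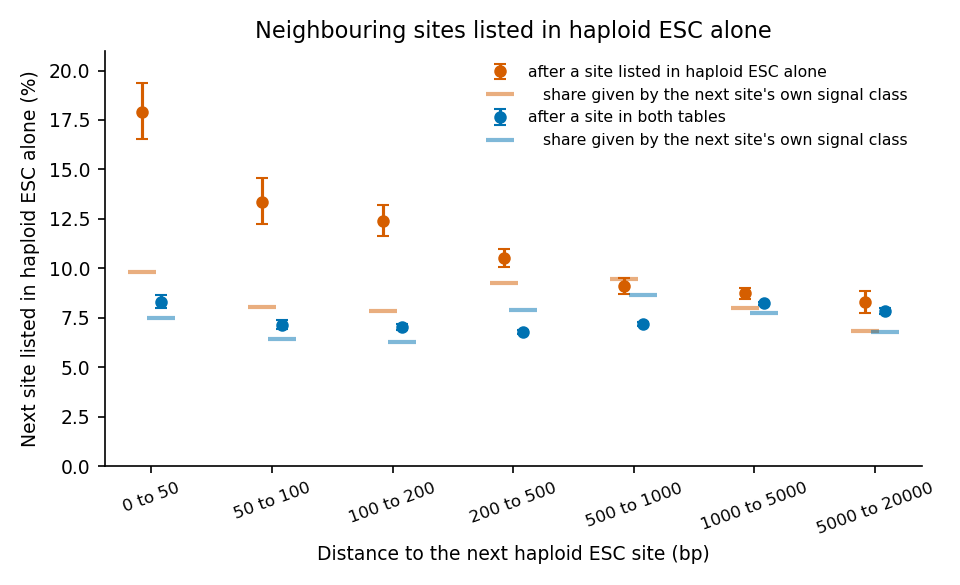
Percent of next haploid ESC sites that are listed in haploid ESC alone (y axis) by the distance to them (x axis, bp), after a site listed in haploid ESC alone (orange) and after a site in both tables (blue), with 95% Wilson intervals. Faint dashes give the share that the next site's own class of summed signal would give. Orange points start at 17.9% within 50 bp and come down to 8.29% at 5000 to 20000 bp, where blue points stand at 7.83%.

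The gap was also present among strong sites, with the span of strong members on chromosome 9 left in. How many of the pairs lie in that span was not counted. Among pairs with all 3 signals of both sites at or above the medians, the next site at 50 to 100 bp was missing after a missing site in 10 of 66 cases (15.2%, 8.44% to 25.7%) and after a shared site in 1.09%. At 200 to 500 bp it was missing in 13 of 163 cases after a missing site (7.98%) and in 0.706% after a shared site. At 1000 to 5000 bp it was missing in 3 of 363 cases after a missing site (0.826%) and in 0.860% after a shared site, so no gap was seen there.

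Long runs were few. Of the 102148 members, 81.6% had no missing neighbour on either side in the haploid ESC table, 15.6% lay in 7979 runs of 2, and 2.36% in 803 runs of 3. There were 101 runs of 4, 10 of 5 and 1 of 8. The run of 8 lay on chromosome 10 from 57117124 to 57122306, and the sperm table had no row in these 5183 bp. A shared site would have ended the run, so only a site listed in sperm alone could have lain there. The summed haploid ESC signals of the run ran from 3.94 to 111 with a median of 53.2, so the run did not consist of weak sites alone. Of the 20 haploid ESC sites next to it, 10 on each side, 1 was missing in sperm.

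The rule names 10 of the 11 runs of 5 or more, and the others named held 5 members each. In 9 of the 10 named runs the median summed signal was below that of the 20 flanking sites, most of which were shared. Over all autosomal haploid ESC sites the median sum was 27.3 at members and 62.7 at shared sites, so this order is not particular to runs. The weakest run, 53591660 to 53594856 on chromosome 3, had a median of 10.3 against 57.6 at its flanks, of which none was missing. The run 134011946 to 134013798 on chromosome 13 had a median of 55.1 against 34.9 at its flanks, so its sites were stronger than their surroundings. The run 36622427 to 36624884 on chromosome 7 had a median of 49.3 against 67.2. Chromosome 5 held the runs 98089150 to 98099602 and 34812917 to 34818926, chromosome 9 that of 84352865 to 84360610, and chromosome 10 that of 52127232 to 52132273. Those left were 195362907 to 195365991 (chromosome 3) and 8727895 to 8729525 (chromosome 13). In 9 of the 10 runs no sperm row lay between the ends, and the run that starts at 98089150 held 1, a site listed in sperm alone. By the definition of a run no other kind of sperm row could lie between its ends.

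Autosomes differed little. The share missing in sperm ran from 7.21% on chromosome 14 to 8.40% on chromosome 16. Chromosomes 20 and 19 followed with 8.34% and 8.14%. Across the 20 autosomes the share went along with the number of listed sites per Mb (Pearson's r = 0.78, Spearman's rho = 0.72), given as a description over chromosomes of the same libraries. The summed-signal classes alone would give 7.59% on chromosome 16, 7.68% on chromosome 20 and 7.36% on chromosome 19, and the part of signal in the chromosome order was not tested. Near the ends the share was lower. It was 6.09% within 0.1 Mb of the first or last listed site of a chromosome and 6.36% at 0.1 to 0.5 Mb. It was 7.28% at 2 to 5 Mb and 8.03% at 10 to 50 Mb. The median summed signal was 65.7, 64.3, 59.6 and 58.8 in the same distance classes. The summed-signal classes alone would give 6.98%, 7.06%, 7.59% and 7.85% there, and the part of signal was not tested.

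Windows of 1 Mb varied somewhat more than counting alone gives. In 2682 windows with at least 50 haploid ESC sites, the share missing in sperm had a median of 7.58%, and 90% of windows lay between 4.88% and 10.6%. Its SD over windows was 1.35 times the SD that counting alone gives. Over these windows the share went down with the median sperm signal at the shared sites, with a Spearman's rho of -0.36, -0.41 and -0.43 for the first, the second and the third signal. For the median haploid ESC signals at shared sites the rho was 0.06, -0.32 and -0.34. These are descriptions across windows of the same libraries.

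The window with the highest share lay on chromosome 2 from 54000001 to 55000000. There 75 of 388 haploid ESC sites were missing in sperm, or 19.3% (15.7% to 23.6%), and their summed-signal classes alone would give 7.57%. The haploid ESC signals at its 313 shared sites were close to those of all autosomes, with medians of 19.7, 20.2 and 21.2, against 19.6, 18.8 and 19.0 over all shared autosomal sites. The sperm signals at the same sites were low in all 3 columns, with medians of 9.25, 10.1 and 9.65, against 16.4, 16.7 and 16.7 over all shared autosomal sites. In its median second sperm signal the window ranked 7th from the lowest of 2682.

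The low sperm signal began and ended near the window's ends. In 11 steps of 100 kb, 53900001 to 55000000, the median haploid ESC signals at 332 shared sites were 19.7, 20.2 and 21.4, and the sperm medians there were 9.26, 10.1 and 9.70. In the 1 Mb before these steps the haploid ESC medians were 16.0, 21.6 and 21.9 and the sperm medians 14.6, 23.3 and 20.8. In the 1 Mb after them the haploid ESC medians were 15.2, 22.8 and 21.8 and the sperm medians 14.8, 24.9 and 23.1. The share missing in sperm was 19.2% in the 11 steps (79 of 411), 10.8% before them and 8.63% after them. Single steps just outside were high as well, with 7 of 26 sites missing in the step before and 6 of 24 in the step after. These steps were singled out after the values were seen, and the part of the low sperm signal in the share was not tested.

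**Figure D5:**
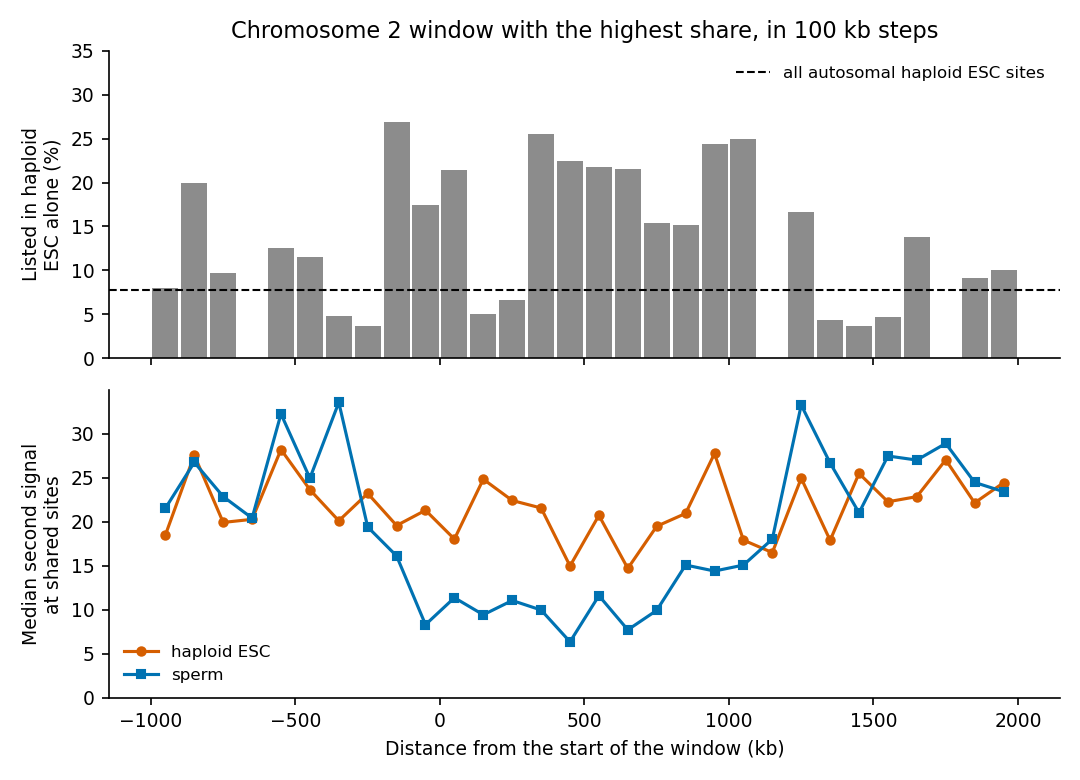
Steps of 100 kb along chromosome 2 by distance from the start of the window with the highest share (x axis, kb). The upper bars give the percent of haploid ESC sites listed in haploid ESC alone, with the share of all autosomal sites (7.75%) as a dashed line, and the lower lines give the median second signal at shared sites in haploid ESC (orange) and sperm (blue). The sperm line lies at 6.36 to 15.1 in the 11 steps that start at -100 kb to 900 kb, below the haploid ESC line in each, and the bars of these steps are above 15% except for those at 100 kb and 200 kb.

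The other high windows did not share this pattern in full. Chromosome 13 from 89000001 to 90000000 had 31 of 207 sites missing in sperm (14.98%), with second-signal medians at shared sites of 16.8 in haploid ESC and 13.8 in sperm. Chromosome 11 from 113000001 to 114000000 had 96 of 745 (12.9%), with 17.4 in haploid ESC and 11.6 in sperm. Chromosome 3 from 18000001 to 19000000 had 34 of 254 (13.4%), with 22.8 in haploid ESC and 24.96 in sperm, so the second signal was not lower in sperm there. Its first-signal medians were 17.2 in haploid ESC and 14.4 in sperm, against 19.6 and 16.4 over all shared autosomal sites. Chromosome 9 from 37000001 to 38000000 had 9 of 66 (13.6%, 7.34% to 23.9%), with 20.2 in haploid ESC and 20.7 in sperm. The summed-signal classes alone would give 9.40%, 8.58%, 7.22% and 8.25% in the windows on chromosomes 13, 11, 3 and 9.

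The windows with the lowest shares were led by chromosome 5 from 184000001 to 185000000, where 1 of 54 sites was missing in sperm (1.85%, 0.328% to 9.77%). Chromosome 3 from 34000001 to 35000000 followed with 2 of 89 and chromosome 5 from 130000001 to 131000000 with 5 of 222. Chromosome 13 from 81000001 to 82000000 had 5 of 208 and chromosome 1 from 86000001 to 87000000 had 6 of 234. The first sperm signal had medians of 106 and 79.5 over all sperm sites in the first 2 of these windows. In the other 3 the medians were 22.3, 21.1 and 14.5. The summed-signal classes alone would give 4.81% and 6.07% in the first 2 and 7.78%, 7.45% and 7.58% in the other 3.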

How the data were processed

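The 2 deposited tables, 1 per cell type, have 10 columns and no header. Per the labels' protocols the reads of the HMST-Seq libraries had 50 bp. The signal values were normalized by the authors, and how is not known from what was used. The columns read as p-values and adjusted p-values are the authors' deposited ones, and no column name states that reading. The adjusted value of the second pair passes 1 in places, so that deposited column is read as a score and set against the same threshold. The submitters' processing notes name hg19, a human build, while the tables name macaque chromosomes, so no annotation, gene or sequence was used. The 4 planned value columns hold 3 distinct ones, and sums are over these 3.

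Members were found by an exact join on chromosome and position. Shares have Wilson intervals (scipy 1.17.1, pandas 2.3.3). Classes were set on all autosomal haploid ESC sites. For a share given by signal alone, each site took the share of its own class of the 10 summed-signal classes. The mean was then taken over the sites of the set. The code that counts runs and neighbours was checked on simulated tables, which is no test of the values against chance. By rule the text names the 10 longest runs, the 5 highest and 5 lowest 1 Mb windows with at least 50 sites, and the 5 members of highest sum. Members and lists were chosen with earlier results of these data known. X and mitochondrial sites were not analysed here.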

Additional observations from a re-analysis of the deposited data

How the results depend on the processing

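With 1 library per digest nothing can be left out within a cell type, so chromosomes were left out in turn: the share missing in sperm then ran from 7.72% to 7.78%. It was 7.69% when a sperm site within 10 bp counted as listed, 1.959% over sites with a summed signal at or above the median, and 6.62% over sites called in the first pair of the authors' deposited table. The ratios of the first, the second and the third signal to shared sites were 0.330, 0.542 and 0.549 with means, 0.360, 0.458 and 0.472 at sites with no other site within 1000 bp, and 0.319, 0.508 and 0.504 at the other sites, all below 1. The difference in percent called, members minus shared sites of the authors' deposited table, was -10.5 points (first pair) and -5.20 points (second pair). At an adjusted p below 0.001 it was -11.0 and -0.822, and with shared sites weighted to the members' signal it turned to 4.72 and 0.542, and the cause was not tested. In class 1 of the summed signal the first-pair deficit remained, with 36.9% of members and 39.8% of shared sites called in the authors' deposited table. The ratio of mean numbers of sites within 1000 bp, 0.900, was 0.903 over the sites of both tables, 0.869 over shared sites, 0.935 within 5000 bp and 0.931 at the members' signal. Within 200 bp it was 1.00065, the other side of 1, and the cause was not tested.

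The share of next sites missing within 50 bp after a missing site was 9.77% where both sites were at or above the median summed signal and 9.30% where all 3 signals of both were. The latter rests on 4 of 43 cases (3.68% to 21.6%). After a shared site these shares were 2.66% and 1.39%. Over all pairs within 50 bp they were 17.9% after a missing site and 8.32% after a shared site. There were 915 runs of 3 or more, and 3 runs of 5 or more with at most 1000 bp between neighbours, against 11 without that limit. The highest share was 36.4% among windows of 100 kb with at least 20 sites. At a summed signal of 2000 or more, the share was 21.3% without the first Mb of chromosome 9. Medians of values above 0 equal those given, since no value is 0. The settings for all 3 signals and for chromosome 9 were added after seeing the data. No paired analysis was possible because the libraries have no replicates. Depth per library is unknown, and a site that the sperm table leaves out for any reason appears as missing.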
